A study of Mus musculus with 502 samples.

Results

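The immunoglobulin heavy chain variable (Ighv) segment genes were followed in single Cd45+ immune cells from kidneys of CD1 mice, a wild type outbred stock. The members were all gene names that begin with Ighv and a number. Of the 46603 genes in the count table, 85 that had at least 1 read and 100 that had none met this rule. Kidneys were taken apart at once (fresh) or were first kept whole and cold in the organ preservative HTS-FRS for 6 h or for 1, 2, 3 or 4 days, and live cells that stained for Cd45 were then sorted into plates and sequenced by a SmartSeq2-type protocol. No group carried any other treatment or allele. The table held 75 fresh cells of 1 library pool and 81 of another, 76 cells after 6 h, 75 on day 1, 78 on day 2, 82 on day 3 and 35 on day 4, or 502 in all. The question of the study was what cold storage changes in such cells.

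Each column was 1 cell, and no label named an animal. Per the methods, the kidney tissue of a timepoint was pooled from the same mouse, so each timepoint counted as 1 sample and no test between timepoints was made. The fresh cells of both library pools carried the same plate well positions, and whether they came from 1 mouse is not known. Shares are given with exact Clopper-Pearson intervals at the 95% level. The reads carry no molecular identifiers and do not each stand for a molecule, and these intervals cover counting error only. Cells carried the number of their library pool: pool A held 75 of the fresh cells, all 6 h and day 2 cells and 2 day 4 cells, pool B held 81 of the fresh cells, all day 1 and day 3 cells and 19 day 4 cells, and pool C held 14 day 4 cells. Time and pool cannot be told apart except against fresh cells of the same pool. Even within a pool, time cannot be told apart from the animal, and CD1 mice are outbred. The total on genes per cell had a median of 695188 and ran from 1759 to 1895431.

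Ighv genes are the germline cassettes from which a developing B cell builds the variable domain of its antibody heavy chain. Recombination by the Rag enzymes joins a D segment to a J segment and then an Ighv segment to both, and the joined exon is transcribed with the constant exons of Ighm and Ighd in a naive B cell. Allelic exclusion normally leaves a B cell with a single productive heavy chain, while the other allele may carry a joined but unproductive V segment that can still be transcribed. Segments fall into families of like sequence, named by the number after Ighv, so a read from a rearranged and possibly mutated segment may lie close to several family members.

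In the GENCODE M21 annotation of GRCm38, all but 4 of the members had 1 entry, 2 had 2 entries and 2 were not found. The annotated members lay on the minus strand of chromosome 12, at chr12:113572927-116010093, a stretch of 2437 kb beyond the J segments, with Ighm at chr12:113418558-113422730. The annotation gives 68 members as V pseudogenes and the other annotated members as functional V genes. A single member with reads overlapped another gene, Ighv1-5, which overlaps the microRNA gene Mir7094-2.

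The members differ in how well a 75-base read, the length the authors trimmed to, can be assigned. Over the last 290 bases, the median identity of all member pairs was 60.3%, but the median identity of a member to its closest member was 94.1%, and 76 members had a relative at 95% identity or more. Of all 75-base windows of a member, a median of 98.9% were found in no other member, 88 members had no shared window at all, and 4 had fewer than 50% unique windows. Ighv2-2, the segment with the most reads, had 60.4% unique windows.

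The windows of 75 bases printed here, which end 100 bases before the 3′ end of the transcript and are given on the coding strand, show how alike the segments are that were read together in the same cell. They are reference sequences from GENCODE M21 on GRCm38, and capitals mark bases that differ from the first sequence of each set. Ighv14-3 (chr12:114059845-114060321) was the top segment of 2 fresh cells in which its relatives Ighv14-1 (chr12:113931953-113932382), Ighv14-2 (chr12:113994469-113994898) and Ighv14-4 (chr12:114176438-114176867) were read as well, at 4, 6 and 5 differences.
Ighv14-3: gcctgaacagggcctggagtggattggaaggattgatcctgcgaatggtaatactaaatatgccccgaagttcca
Ighv14-1: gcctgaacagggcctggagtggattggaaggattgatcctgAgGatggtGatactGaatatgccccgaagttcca
Ighv14-2: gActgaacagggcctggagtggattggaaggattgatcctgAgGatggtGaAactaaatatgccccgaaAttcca
Ighv14-4: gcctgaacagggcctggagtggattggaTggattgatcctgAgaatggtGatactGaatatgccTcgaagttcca

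Ighv5-9 (chr12:113661769-113662293) led 2 fresh cells that also had reads of Ighv5-9-1 (chr12:113736111-113736630), at 9 differences, and Ighv5-4 (chr12:113597446-113597977), at 6. Ighv2-2 (chr12:113588267-113588702) led a fresh cell that had reads of Ighv2-5 (chr12:113685482-113686045), at 3 differences, and Ighv2-4 (chr12:113653291-113653724), at 1. Ighv8-6 (chr12:115165777-115166220) and Ighv8-13 (chr12:115765333-115765635), at 1 difference, were the members read in the most cells that were not B cells.
Ighv5-9: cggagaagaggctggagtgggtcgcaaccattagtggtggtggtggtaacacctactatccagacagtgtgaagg
Ighv5-9-1: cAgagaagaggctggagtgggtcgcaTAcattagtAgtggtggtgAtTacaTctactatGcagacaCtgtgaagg
Ighv5-4: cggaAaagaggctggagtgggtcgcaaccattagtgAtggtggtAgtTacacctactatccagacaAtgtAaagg
Ighv2-2: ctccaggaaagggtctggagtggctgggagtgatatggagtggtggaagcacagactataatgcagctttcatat
Ighv2-5: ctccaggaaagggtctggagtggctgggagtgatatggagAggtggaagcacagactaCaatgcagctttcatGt
Ighv2-4: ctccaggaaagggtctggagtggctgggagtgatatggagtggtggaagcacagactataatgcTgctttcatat
Ighv8-6: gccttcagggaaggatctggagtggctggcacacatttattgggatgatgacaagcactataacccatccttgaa
Ighv8-13: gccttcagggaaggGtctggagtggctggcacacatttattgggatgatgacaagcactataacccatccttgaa

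The 3′ ends of the members most used as the top segment are printed next, as their last 30 bases on the coding strand, because this is where the segment is joined to D. Capitals mark TGTGC, the letters around the conserved cysteine codon that lies just before the third complementarity-determining region.
Ighv2-2: tgacacagccatatattacTGTGCcagaaa
Ighv7-3: acagtgccacttattacTGTGCaagatata
Ighv14-3: gaggacactgccatctattacTGTGCtaga
Ighv3-6: ggacacagccacatattacTGTGCaagaga
Ighv1-18: gaggacactgcagtctattacTGTGCaaga
Ighv2-9: tgacacagccatgtactacTGTGCcaaaca
Ighv1-55: gaggactctgcggtctattacTGTGCaaga
Ighv1-75: gaggactctgcggtctatttcTGTGCaaga
Ighv2-9-1: tgacacagccaggtactacTGTGCcagaaa
Ighv1-81: gaggactctgcggtctatttcTGTGCaaga
TGTGC, searched on the coding strand only, stood in the last 30 bases of 91 functional members (80.5%), of 32 of 68 pseudogenes (47.1%) and of 67.2% of all members with a sequence. A match is a description of the reference and not of the transcript of a cell. Ighv1-75 and Ighv1-81 share these 30 bases in full.

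Among the 85 members with a read, 12 had 1 to 9 reads, 21 had 10 to 99 and 52 had 100 or more, of which 21 had at least 1000. All members together held 46022 reads, or 0.0133% of all gene counts. Of the 85, 73 were functional members and 12 were pseudogenes, out of 68. The pseudogenes held 1774 reads, 3.85% of the total, of which 1157 were in Ighv1-14, the top segment of 2 B cells.

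B cells were taken as cells with at least 10 reads each of Cd79a and Cd79b, the signalling chains of the B cell receptor, a rule that uses no Ighv read. It found 76 cells, of which the lowest had 20 reads of its weaker Cd79 chain, and the highest cell outside the rule had 9. The label was checked against other B cell markers: reads of Ms4a1 (Cd20) were in 57 of the 76 cells, of Ebf1 in 55, of Pax5 in 49, of Blk in 47, of Cd22 and of Fcer2a in 46 each and of Spib in 39. The markers differed between the B cells of different timepoints: Fcer2a was read in 15 of 17 fresh cells, 0 of 9 after 6 h, 4 of 14 on day 1 and 25 of 30 on day 2, Pax5 in 17, 6, 10 and 10 of them, and Cd22 in 16, 3, 8 and 17. The B cells set side by side over time were thus unlike in these genes as well, and the part of this in the Ighv values was not tested. Of the T cell genes, Cd3e and Cd3g were read in 2 of the 76 B cells each and Cd3d in 3. Lck was read in 5, Lef1 in 7, Cd8a in 1 and Cd4 in 0. Of the macrophage genes, C1qa was read in 6, C1qb in 8, C1qc in 4, Adgre1 in 5, Cd68 in 9 and Csf1r in 10. Among neutrophil genes S100a8 was read in 1, S100a9 in 2, and G0s2 and Csf3r in 0. Among NK cell genes Nkg7 was read in 2, Gzma in 1, and Ncr1 and Klrb1c in 0. Reads of the kidney tubule gene Umod were in 10 of the 76 cells, 8 of these on day 2, and in 8 of the 426 other cells. Of the other kidney epithelium genes, Slc34a1 was read in 0 of 76 B cells and 6 of 426 others, Kap in 3 and 16, and Miox in 3 and 4. Unlike Umod, Kap and Miox were each read in 2 B cells after 6 h and in 1 on day 2.

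The B cells were 17 of the fresh cells (10.9%), 9 of 76 after 6 h, 14 of 75 on day 1, 30 of 78 on day 2, 4 of 82 on day 3 and 2 of 35 on day 4. All 17 fresh B cells were in pool B, with none among the 75 fresh cells of pool A (interval up to 4.80%). B cells after 6 h and day 2, all in pool A, therefore had no fresh B cells of their own pool beside them, and only day 1, day 3 and day 4 could be set beside fresh cells within a pool. Day 3 and day 4, with 4 and 2 B cells, are given as single values, as counts or as medians of these few cells.

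The B cells expressed unswitched heavy chains. Ighm, the constant gene of IgM, was read in 76 of 76 B cells and Ighd, the constant gene of IgD, in 65. Ighg3 was read in 2 B cells, and Ighg1, Ighg2b, Ighg2c, Igha and Ighe, the other class-switched constant genes, were listed at 0 in all 502 cells. Of the plasma cell genes, Jchain had no read, Sdc1 was read in 4 B cells, Prdm1 in 2, Xbp1 in 15, Irf4 in 41 and Mzb1 in 43, the last a chaperone of immunoglobulin. Of the genes of V(D)J recombination and the pre-B stage, Rag1 was read in 4 B cells, including both day 4 cells, Igll1 in 2, and Rag2, Dntt and Vpreb1 in none. The short J segments gave almost nothing, with 3 reads of Ighj4 in 1 B cell and none of Ighj1, Ighj2 or Ighj3.

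Ighv reads lay almost entirely in the B cells. These 76 cells held 45559 of the 46022 reads, or 98.99%, and the 426 other cells held 463. At least 1 Ighv read was found in 74 of 76 B cells and in 21 of the 426 others (4.93%, interval 3.08 to 7.44%). Over all cells of a timepoint the share with an Ighv read was 13.5% in fresh cells (21 cells), 14.5% after 6 h, 25.3% on day 1, 42.3% on day 2, 9.76% on day 3 and 8.57% on day 4. The fresh share was 5.33% in pool A and 20.99% in pool B. B cells, as taken above, made up 10.9, 11.8, 18.7, 38.5, 4.88 and 5.71% of the same cells.

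The number of Ighv reads differed widely between B cells. The 17 fresh B cells had 20 to 774 reads, with an interquartile range of 71 to 338. The 9 cells after 6 h had 2 to 1838 reads, with an interquartile range of 309 to 1198. On day 1 the 14 cells had 0 to 1054 reads (148.5 to 504.2), and on day 2 the 30 cells had up to 1918 (604.5 to 1137.5). Among these 4 timepoints the median was lowest in fresh cells, followed by 245.5 on day 1, 816 on day 2 and 1123 after 6 h. The 4 cells on day 3 reached 658 reads and the 2 cells on day 4 reached 679. All full ranges overlapped, and every timepoint held at least 1 cell with 658 reads or more.

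Scaled to reads per 1000000 gene counts (rpm), the median Ighv level of B cells was 234.2 in fresh cells (lowest 35.2, highest 1145), 901 after 6 h (1.80 to 1866), 556 on day 1 (0 to 1325) and 864 on day 2 (167.8 to 2429). On day 3 the levels were 0, 63.5, 378 and 738 rpm, and on day 4 they were 717 and 1651 rpm. The interquartile range of fresh cells, 140.7 to 525 rpm, lay below that of day 2 cells, 636 to 1291 rpm, while that of day 1 cells, 314 to 809 rpm, overlapped both. Within pool B the fresh median of 234.2 stood beside 556 rpm on day 1. Fresh B cells were also shallower, with a median total of 530891 counts against 985258 after 6 h, 557475 on day 1 and 893016 on day 2. The part of depth, of pool and of animal in these levels was not tested, and fewer transcripts per cell cannot be told apart from a lower yield of the library.

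**Figure D1:**
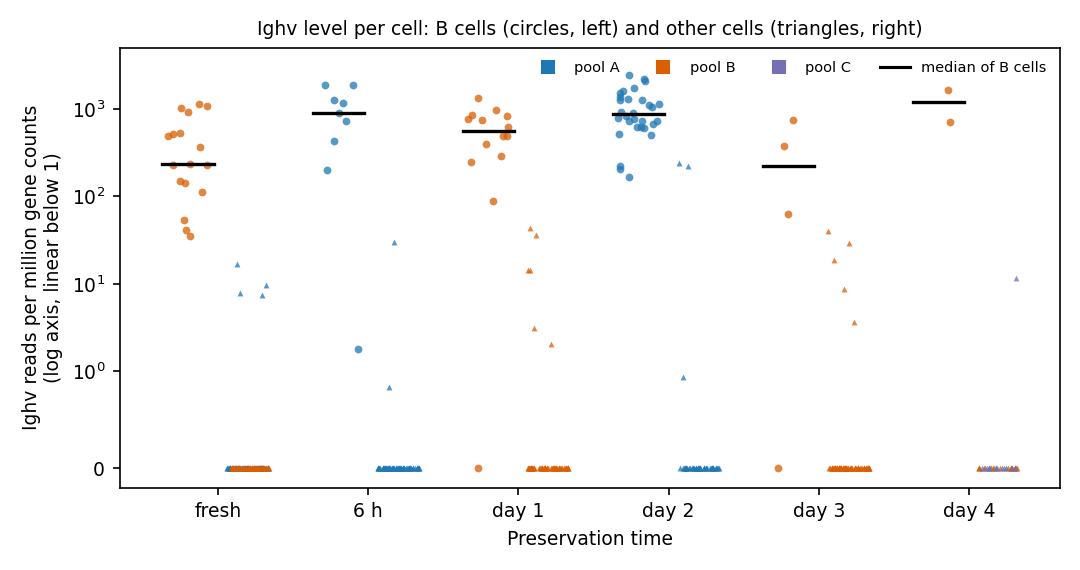
Ighv reads per 1000000 gene counts (vertical log axis, linear below 1) in each cell by preservation time, with B cells as circles and other cells as triangles, coloured by library pool, and a bar at the median of the B cells. The medians stand at 234.2 rpm in fresh B cells, 901 after 6 h, 556 on day 1 and 864 on day 2, and most other cells lie at 0.

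Set against the constant genes of the same transcript, the median B cell had 3.05 Ighv reads per 100 reads of Ighm and Ighd in fresh cells, 6.50 after 6 h, 6.42 on day 1, 9.16 on day 2, 1.59 on day 3 and 7.57 on day 4. Per 100 reads of Ighm alone, the medians were 5.41 in fresh cells (interquartile range 2.96 to 8.71), 6.69 after 6 h, 6.43 on day 1 (5.11 to 9.64) and 12.1 on day 2, so the gap between fresh and day 1 cells of the same pool was smaller without Ighd. The median Ighm level was 4890 rpm in fresh B cells, 11806 after 6 h, 7139 on day 1 and 7620 on day 2, and that of Ighd was 3866, 952, 50.2 and 2449 rpm. Across the 76 B cells, which share pools and depth, Ighv and Ighm read numbers had a Spearman correlation of 0.838, and Ighv reads and the total of the cell had 0.616, both given as descriptions.

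A top segment was named in B cells with at least 20 Ighv reads. This held for 73 of 76 B cells (96.1%, interval 88.9 to 99.2%): 17 of 17 fresh, 8 of 9 after 6 h, 13 of 14 on day 1, 30 of 30 on day 2, 3 of 4 on day 3 and 2 of 2 on day 4. The 3 cells without were a 6 h cell with 2 Ighv reads, which also held 6282 reads of C1qa, and a day 1 and a day 3 cell with none. The last 2 had 524 and 2264 Ighm reads and met the Cd79 rule, with no Ighv read counted.

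Most B cells had reads of only a few segments. The median number of segments with a read was 3 in fresh B cells (1 to 9), 1 after 6 h (1 to 2), 2 on day 1 (0 to 3), 2 on day 2 (1 to 14), 2.5 on day 3 and 2 on day 4. Reads of a single segment alone were found in 27 of the 73 cells (36.99%, interval 25.97 to 49.1%), made up of 5 of 17 fresh, 4 of 8 after 6 h, 3 of 13 on day 1, 14 of 30 on day 2, 0 of 3 on day 3 and 1 of 2 on day 4. In 59 of 73 cells the 2 leading segments held at least 99% of the Ighv reads. Across the 73 cells of all timepoints together, the numbers of segments and of reads had a Spearman correlation of -0.20. This value mixes timepoints that differ in both numbers, and the relation within a timepoint was not taken.

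With only segments of at least 5 reads counted, the median was 2 in fresh B cells, 1 after 6 h, 1.5 on day 1, 1 on day 2 and 1.5 on day 3. With only segments of at least 1% of the reads counted, it was 3, 1, 2, 1 and 1.5. The number of segments was also taken after thinning. After each cell was thinned at random to 100000 gene counts, the median was 2 segments in fresh B cells, 1 after 6 h, 1.5 on day 1 and 1 on day 2, at medians of 27, 99, 53 and 85.5 Ighv reads left in a cell. After thinning to 100 Ighv reads, which left out 12 of the 76 cells and 7 of the 17 fresh ones, it was 2.5 in 10 fresh cells, 1 in 8 cells after 6 h, 2 in 12 cells on day 1 and 1 in 30 cells on day 2. Of the thinned cells 3 of 10 fresh, 6 of 8 after 6 h, 5 of 12 on day 1 and 16 of 30 on day 2 had a single segment.

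The top segment held a median of 95.8% of the Ighv reads of a cell over all 73 cells. The median was 68.3% in fresh cells (39.1 to 100%), 99.97% after 6 h (54.3 to 100%), 84.3% on day 1 (51.2 to 100%) and 99.8% on day 2 (17.9 to 100%). On day 3 the 3 shares were 52.2, 80.9 and 99.7%, and on day 4 they were 84.5 and 100%. The top segment reached 90% in 6 of 17 fresh cells (35.3%, interval 14.2 to 61.7%), 7 of 8 after 6 h, 6 of 13 on day 1 and 21 of 30 on day 2 (70%, interval 50.6 to 85.3%). Within pool B, where day 1 can be compared, 6 of 17 fresh and 6 of 13 day 1 cells reached it, shares whose intervals overlap.

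**Figure D2:**
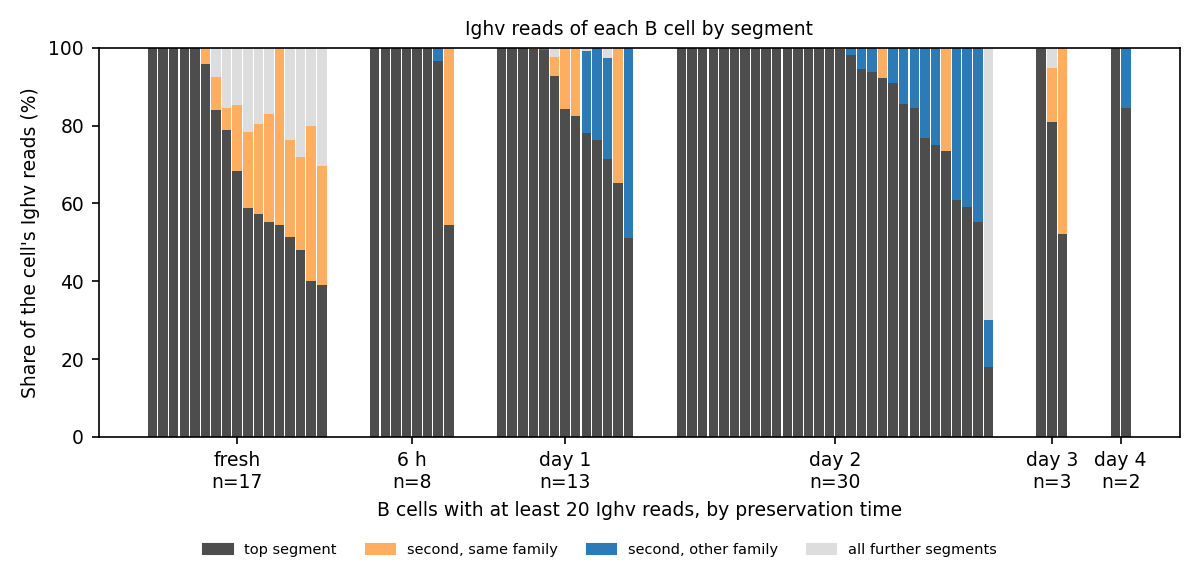
Each bar is 1 B cell with at least 20 Ighv reads, in order of the top share within its preservation time, and its height (vertical axis, %) is divided into the top segment, the second segment of the same or of another family, and all further segments. Fresh cells divide their reads within a family, while 12 of the 16 day 2 cells with a second segment have it from another family.

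The reads outside the top segment were of different kinds at different timepoints. In fresh cells they stayed in the family of the top segment: all 12 fresh cells with a second segment had it from the same family, and the top family held at least 96.2% of the reads of every fresh cell. Summed by family, the median share was 100% at every timepoint except day 4, where the 2 cells gave 84.7 and 100%. The second segment, counted from 1 read on, came from the same family in 3 of 4 cells after 6 h, 5 of 10 on day 1, 4 of 16 on day 2, 3 of 3 on day 3 and 0 of 1 on day 4. With at least 3 reads of the second segment required, this was 12 of 12 in fresh cells and 1 of 2 after 6 h. It was then 3 of 8 on day 1, 2 of 14 on day 2, 2 of 2 on day 3 and 0 of 1 on day 4. Within pool B, where time cannot be told apart from the animal, the second segment was from the same family in 12 of 12 fresh cells against 5 of 10 day 1 cells. More than 5% of the reads lay outside the top family in 0 of 17 fresh cells, 0 of 8 after 6 h, 4 of 13 on day 1, 11 of 30 on day 2, 0 of 3 on day 3 and 1 of 2 on day 4.

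The 27 second segments of the same family were 80.7 to 98.6% identical to the top segment with a median of 95.5%, and the 19 of another family were 49.3 to 78.3% identical with a median of 58.97%, near the 60.3% of all member pairs. By timepoint the median identity was 95.2% in fresh cells, 88.1% after 6 h, 71% on day 1, 61.7% on day 2 and 97.6% on day 3. Except in fresh cells, these medians include second segments with only 1 or 2 reads. Same-family partners stood a median of 11 places apart along the locus and other-family partners a median of 60 places, with no pair of neighbours among the 19. The second segment of another family lay farther from D than the top segment in 12 of 19 cells, and that of the same family in 17 of 27.

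**Figure D3:**
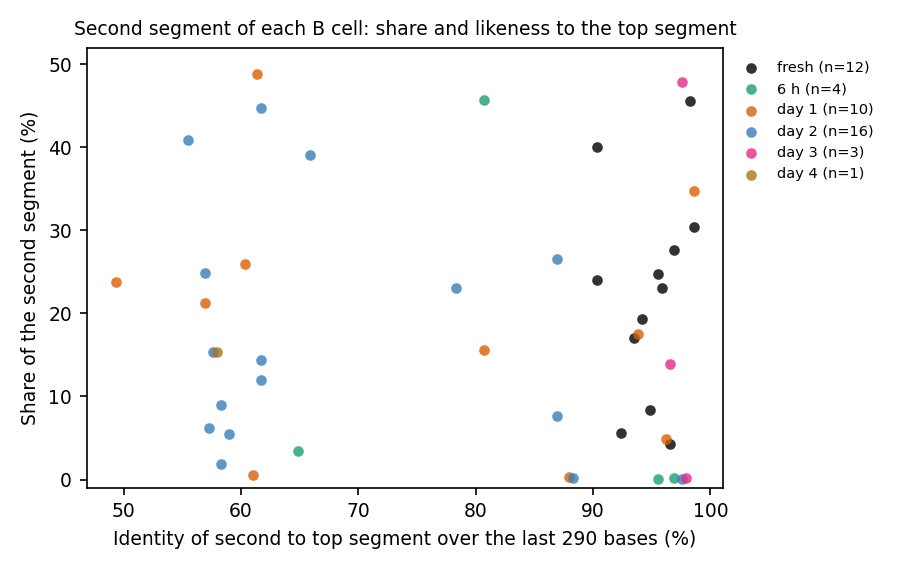
Share of the second segment in the Ighv reads of a B cell (vertical axis, %) against the identity of its reference sequence to that of the top segment over the last 290 bases (horizontal axis, %), with 1 point per cell coloured by preservation time. The 12 fresh cells lie at 90.3 to 98.6% identity, while day 1 and day 2 cells also fill the range of 49.3 to 78.3%.

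A second segment with at least 20% of the reads was found in 20 of 73 cells, 11 times from the same family and 9 times from another. The 9 other-family cells were all from day 1 and day 2. On day 1 they held Ighv7-3 with Ighv1-81 (71.3 and 26% of 150 reads), Ighv3-8 with Ighv1-84 (76.2 and 23.8% of 160 reads), Ighv7-3 with Ighv1-49 (78.02 and 21.3% of 555 reads), and Ighv5-16 with Ighv3-4 (51.2 and 48.8% of 697 reads). On day 2 they held Ighv1-81 with Ighv7-1 (59.2 and 40.8% of 524 reads), Ighv2-2 with Ighv14-3 (55.2 and 44.8% of 815 reads) and Ighv3-4 with Ighv2-5 (60.9 and 39.1% of 915 reads). The last 2 cells, also from day 2, held 909 reads of Ighv14-2 with 273 of Ighv1-21-1, and 1440 of Ighv1-55 with 478 of Ighv13-2. In each of these 9 cells hardly any other segment was read: 7 had no other segment and the other 2 gave at most 2.67% to it.

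The 9 cells are set beside the 11 same-family cells here, with the limit that the 9 were all from day 1 and day 2 while 7 of the 11 were fresh, and that fresh B cells as a whole had fewer Ighv reads and a higher top share of the light chain. All ranges overlapped. The 9 cells held 150 to 1918 Ighv reads with a median of 697, against 20 to 1165 in the 11, whose median was below 150, the lowest of the 9. A segment in the next rank after the second was read in 2 of the 9 and in 6 of the 11 cells, and in the latter it took up to 21.9% of the reads. The light chain, read from the same cells, was also divided in some of both: the top light chain V segment held a median of 77.8% of the light chain V reads in the 9 cells (40.1 to 100%) and 99.9% in the 11 (64.97 to 100%). Reads of Cd3e, C1qa or S100a8 were in 1 of the 9 cells and 0 of the 11. Whether a well held more than 1 cell was not tested.

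The 7 fresh cells with a second segment above 20% had it from the same family, in 6 of them with further segments behind it. A fresh cell with Ighv14-3 on top had 54 reads of it, 26 of Ighv14-2, 23 of Ighv14-1 and 2 of Ighv14-4, all members of the Ighv14 family shown above. The fresh cell with Ighv2-2 on top had 26 reads of it, 13 of Ighv2-5 and 8 of Ighv2-4. Another divided its reads between Ighv1-15 (54.4%) and Ighv1-23 (45.6%), which are 98.3% identical, and another gave 57.4% of 338 reads to Ighv8-5 and 23.1% to Ighv8-8, which are 95.9% identical. The other 3 of the 7 had 20 to 25 reads in all, led by Ighv1-37 and Ighv1-39 in 2 cells and by Ighv1-61 and Ighv1-52 in 1. With a second segment below 20%, at 17.03 and 19.3%, the 2 fresh cells led by Ighv5-9 had 409 and 341 reads of it, with the rest on Ighv5-9-1, Ighv5-4 and further members.

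The largest number of segments was in a day 2 cell with 14 segments from 7 families, in which the top segment, Ighv7-3, held 17.9% of 681 Ighv reads, and Ighv1-26 held 82. This cell also had 17 light chain V segments, 83 reads of Cd3e and 897 of C1qa. It was the only B cell with more than 9 Ighv segments and with at least 10 reads of Cd3e. Leaving out the 3 B cells with at least 10 reads of C1qa moved no median of level, number of segments or top share outside the 95% interval of that median over cells.

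The light chain gave a different order over time. The top V segment of the kappa and lambda genes held a median of 98.4% of the light chain V reads in fresh B cells, 93.2% after 6 h, 94.6% on day 1 and 89.5% on day 2, with medians of 2, 4, 2.5 and 3 segments. The heavy chain had its lowest top share from fresh to day 2 in the fresh cells, while the light chain had its highest there.

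Different B cells used different segments. The 73 cells had 45 top segments, of which 26 led a single cell, 13 led 2 cells and 6 led 3 or more. Distinct top segments numbered 13 in 17 fresh cells, 7 in 8 cells after 6 h, 12 in 13 on day 1, 25 in 30 on day 2, 3 in 3 on day 3 and 2 in 2 on day 4, so no timepoint was led by a single segment. From fresh to day 2 the most frequent segments of a timepoint led 2 cells each: Ighv14-3, Ighv5-9, Ighv2-9 and Ighv1-39 among fresh cells, Ighv1-18 after 6 h, Ighv7-3 on day 1, and Ighv2-2, Ighv1-55, Ighv1-81, Ighv7-3 and Ighv8-8 among those on day 2. No segment led more than 1 cell on day 3 or day 4.

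Ighv2-2, which lies near the D side of the locus, led 5 cells and had the most reads, 3970 in all. It led a fresh cell with 26 of 47 Ighv reads, a 6 h cell with 1121 of 1123, day 2 cells with 450 of 815 and 1716 of 1716, and a day 3 cell with 656 of 658. Ighv7-3 led 4 cells, with 71.3 and 78.02% of the Ighv reads on day 1 and 94.5 and 17.9% on day 2. Ighv14-3 led 2 fresh cells with 51.4 and 84.03% of the reads and a day 2 cell with 90.97%. Ighv3-6 was the only segment read in its 3 cells, which were a fresh cell, a day 1 cell with 1054 reads and a day 2 cell with 330. Ighv1-18 led 2 cells after 6 h and 1 on day 2 and Ighv2-9 led 2 fresh cells and 1 on day 4, each as the only segment.

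By summed reads, Ighv2-2 was followed by Ighv1-55 with 2628 reads, Ighv1-75 with 2083, Ighv14-3 with 1849 and Ighv1-66 with 1838. The reads of a segment depend on few cells: 1837 of the 1838 of Ighv1-66 came from a single 6 h cell, which had 1 read of Ighv1-84 besides, and Ighv1-55 and Ighv1-75 each led 2 cells. Ighv2-9-1 and Ighv1-81, with 1814 and 1529 reads, also led 2 cells each.

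Ighv1, the largest family, led 31 of the 73 B cells (42.5%, interval 30.97 to 54.6%), and it makes up 46.9% of the functional members. Ighv2 led 12 cells (16.4%, interval 8.79 to 26.95%) and makes up 7.96%. Ighv3 and Ighv5 led 7 cells each, Ighv8 led 5, Ighv7 and Ighv14 led 4 each, Ighv6 led 2 and Ighv4 led 1. The families Ighv9, Ighv10, Ighv11, Ighv12, Ighv13, Ighv15 and Ighv16 led none (interval up to 4.93% each). Ighv1 led 7 of 17 fresh cells, 5 of 8 after 6 h, 3 of 13 on day 1 and 13 of 30 on day 2, and Ighv2 led 3, 1, 1 and 5.

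Top segments were spread over the whole locus. With the functional members in order from the D side, the first 29 led 24 of 70 cells (34.3%, interval 23.3 to 46.6%), the next 28 led 15 (21.4%), the next 28 led 17 (24.3%) and the 28 farthest from D led 14 (20%), so all intervals overlapped. The other 3 of the 73 cells were led by annotated pseudogenes, 2 by Ighv1-14 and 1 by Ighv1-62. An outbred mouse may carry other alleles than the reference, and the annotation of a pseudogene applies to the reference alone.

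**Figure D4:**
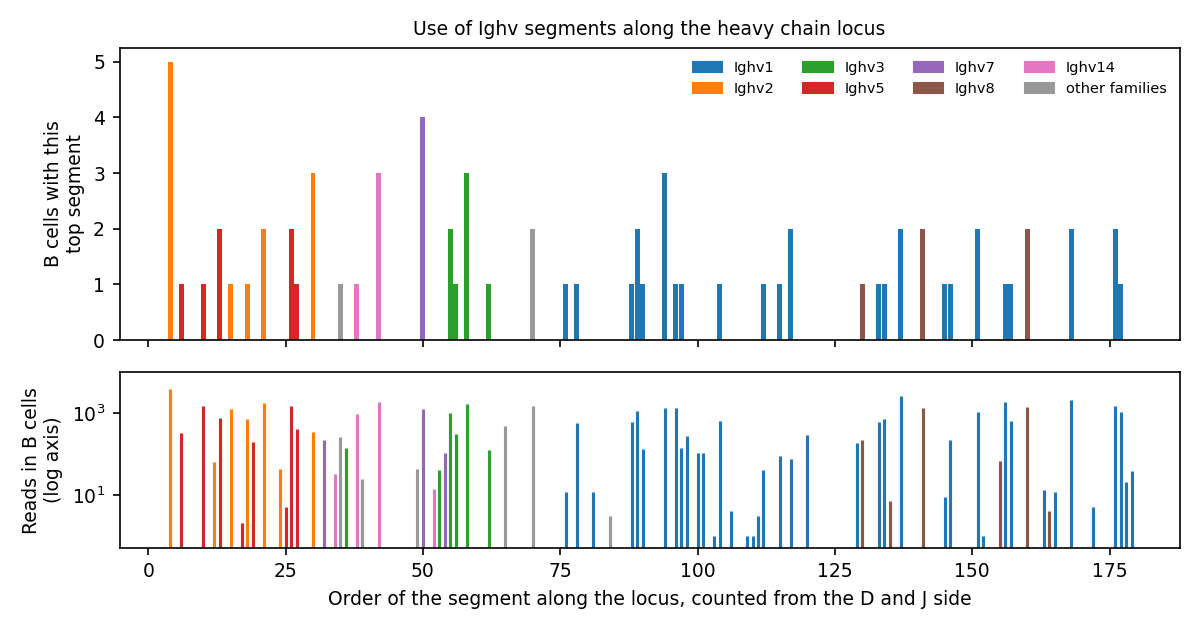
The members in order along the heavy chain locus from the D and J side (horizontal axis), with the number of B cells in which each was the top segment (upper panel) and its reads in B cells on a log axis (lower panel), coloured by family. Ighv2-2 led 5 cells, Ighv7-3 led 4, and top segments are found from the D side to the far end of the locus.

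Outside the B cells, 21 of 426 cells had an Ighv read and 6 had at least 20. By timepoint these were 4 fresh cells (2.88%), 2 of 67 after 6 h, 6 of 61 on day 1 (9.84%), 3 of 48 on day 2, 5 of 78 on day 3 and 1 of 33 on day 4. All 4 fresh cells were in pool A (4 of 75, 5.33%), and in pool B, the pool of day 1 and day 3, none of 64 fresh cells had a read (interval up to 5.60%). Thinned to 100000 counts, 13 of 418 such cells kept a read. Among cells with at least 10 reads of a marker, 4 Cd3e cells (3.77%), 6 C1qa cells (4.84%) and 5 of 48 S100a8 cells (10.4%, interval 3.47 to 22.7%) had an Ighv read, at median totals of 708410, 618542 and 716705. Ighm reads were far more common, in 49.5% of the 426 cells and in 81.5% of the C1qa cells.

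Apart from Ighv1-26, the members read in the most cells outside the B cells were Ighv8-6, Ighv8-13 and Ighv6-3, which held 54.2% of the 463 reads. Ighv8-6 was read in 8 such cells and had 7 reads in 1 B cell, Ighv8-13 had 60 reads in 5 such cells and 4 in 1 B cell, and Ighv6-3 had 25 reads in 3 such cells and none in a B cell. Either of Ighv8-6 and Ighv8-13 was read in 8 cells and both in 5, and their sequences are 95.5% identical. Ighv1-26, read in 3 such cells, had only 5 reads there and 645 in B cells. A day 2 cell with 2796 reads of S100a8 had 110 reads of Ighv1-64 and 51 of Ighv8-10, and a day 3 cell just outside the B cell rule, with 32 reads of Cd79a, had 10 of Ighv1-12.

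Libraries of a pool were told apart by pairs of index numbers, and of 17700 pairs of a B cell with a named top segment and another cell of its pool, 1875 (10.6%) shared an index. Of 32 side segments with 1 or 2 reads in B cells, 7 were the top segment of another cell of the same pool, and 1 of these shared an index with that cell. Of 68 side segments with 3 or more reads, 18 were the top of another cell in the pool and 5 of these shared an index. In the other cells this held for 5 of 13 with 1 or 2 reads and 1 of 20 with more, of which 2 and 0 shared an index. The part of such carry-over in the side segments was not tested.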

How the data were processed

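The deposited values are raw counts of reads per gene, with 1 column per cell. The authors trimmed the reads to 75 bases, removed duplicates with picard, aligned them to GRCm38 with STAR and ran HTSeq in its intersection-strict mode without regard to strand, and they dropped cells below 1000 reads. For none of these tools is a version given in the sources used here. Under this setting, a read that runs past the end of a segment into D or J, or that fits several segments equally, may not be counted, which touches every number given here.

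The 96 ERCC rows (0.000185% of counts) and the vector row (0.139%) were left out of totals. Members and lists were chosen with earlier results of these data known. Python 3.11.15, pandas 2.3.3, numpy 2.4.6, scipy 1.17.1, matplotlib 3.10.9 and Biopython 1.88 were used. Identities are from alignments of the last 290 bases (match 1, mismatch -1, gap open -3, gap extension -1). Thinning drew counts at random without replacement with seed 1. The counting steps were tested on simulated cells with a clear leading segment and the other reads spread evenly. Near-equal segments and the assignment of reads among like segments were not tested by this.

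Named are the 10 members that led the most B cells, the 5 with the most reads, the most frequent of each timepoint, up to 10 cells with a second segment of at least 20%, the 3 members read in the most other cells (a tie made it 4), families, and the listed genes of B cells and other cell types. The 10 cells were the 9 of different families and the fresh Ighv14-3 cell. Other named cells, Ighv5-9, Ighv1-14, Ighv1-62, Ighv1-64, Ighv1-12 and Umod were picked after their values were seen. With equal reads, the member listed first was the top.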

Additional observations from a re-analysis of the deposited data

How the results depend on the processing

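Over 52 results, 9 alternative values fell outside the 95% interval of the main value, and all others inside it. For shares this was the counting interval, and for medians an interval of the median that counts each cell as independent. The share of cells with an Ighv read among fresh cells, 13.5%, was 5.33% in pool A and 20.99% in pool B. The share of B cells with a top segment fell from 100% to 58.8% in fresh cells when 100 Ighv reads were required, and rose from 88.9% to 100% after 6 h when B cells needed 50 reads of Cd79a and Cd79b, or 10 of Cd79a and Ms4a1 (100%). The share of other cells with an Ighv read was 0% in fresh cells, 1.64% on day 1 and 1.28% on day 3 when at least 20 reads were required. The day 3 top share, 80.9%, was 100% when segments were summed by family. For medians of day 3 and day 4 the interval ran from the lowest to the highest cell, so few alternatives could fall outside it. With 1 read of Cd79a and Cd79b required, the median Ighv level fell from 220.6 to 63.5 rpm on day 3. On day 4 it fell from 1184 to 717 rpm, and both values were inside the interval. The alternative without B cells that had C1qa reads was chosen after seeing the data. No paired analysis was possible because no label names an animal, each timepoint was counted as 1 sample and cells are not pairs. Top shares of cells with few Ighv reads, 20 at the lowest, rest on little depth, and day 3 and day 4, with 4 and 2 B cells, allow no statement on spread.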
